A study of Mus musculus with 5 samples.

Results

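The genes described here encode proteins that start, brake or dissolve blood clots at the vessel wall: Vwf, Thbd, Procr, Tfpi, F3, F8, F13a1, Plat and Plaur. Members were all probe sets whose platform annotation gave one of these symbols alone, which found 11 probe sets for the 9 genes among 22690 probe sets in the table. Tfpi had 3 probe sets and each other gene 1. All 11 passed the filter on low values, a log2 signal above 4 on at least 2 arrays, and so entered the tests. The arrays were Affymetrix MOE 430 A 2.0, hybridised with RNA of sorted thymic endothelial cells, taken from C57BL/6J females aged 6 to 8 weeks. The day 0 group held 3 arrays of untreated mice. The day 4 group held 2 arrays, from mice sampled at day 4 of a sublethal irradiation of the whole body (SL-TBI), given at 550 cGy from a cesium source and not followed by hematopoietic rescue. For both groups the protocol gave a magnetic depletion of CD45-positive cells followed by a sort of CD45-, EpCAM- and VE-Cad+ cells, and cells of several mice were pooled for each array. The cell type label differed, with CD45- thymic stromal cells at day 4 and thymic endothelial cells at day 0. The same sort was assumed for both groups. A difference in sort could not be told apart from a difference between the days.

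Endothelium keeps blood fluid by displaying anticoagulants. Thrombomodulin, from Thbd, binds thrombin, and the thrombin bound to it activates protein C held on the endothelial protein C receptor, from Procr. Tissue factor pathway inhibitor, from Tfpi, blocks the complex of factor VII and tissue factor, which F3 encodes and which starts clotting. Endothelial cells also store von Willebrand factor in Weibel-Palade bodies, carry or make factor VIII, and release tissue plasminogen activator, which turns plasminogen into the clot-dissolving enzyme plasmin.

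At day 4, Procr and F13a1, the gene of the factor XIII A subunit, were higher, and 0 of the 9 members were lower. These are the calls of limma at a Benjamini-Hochberg adjusted p under 0.05 over 8940 genes, of which 1.50% were called higher and 1.35% lower. At an unadjusted limma p under 0.05, 3 members passed, the third being Plaur, against 21.2% of all genes tested. On these same 3 genes both day 4 arrays lay above every day 0 array, which held for 18.0% of all genes tested. The other 6 members had overlapping groups, as did 58.9% of all genes tested. The members' log2 changes ran from -1.39 for F8 to 2.45 for F13a1 with a median of 0.061, beside a median of -0.023 over all genes tested. A log2 change is the day 4 mean minus the day 0 mean, and its error is limma's standard error (SE). Where the probe sets were fitted in place of genes, 2 of the 11 were called, again those of Procr and F13a1, against 1.39% of 15065 probe sets. Arrays of bulk RNA cannot tell apart fewer cells of a type from less RNA per cell. Because each array is a pool of mice, the p-values measure the spread between pools, which may be technical.

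**Figure D1:**
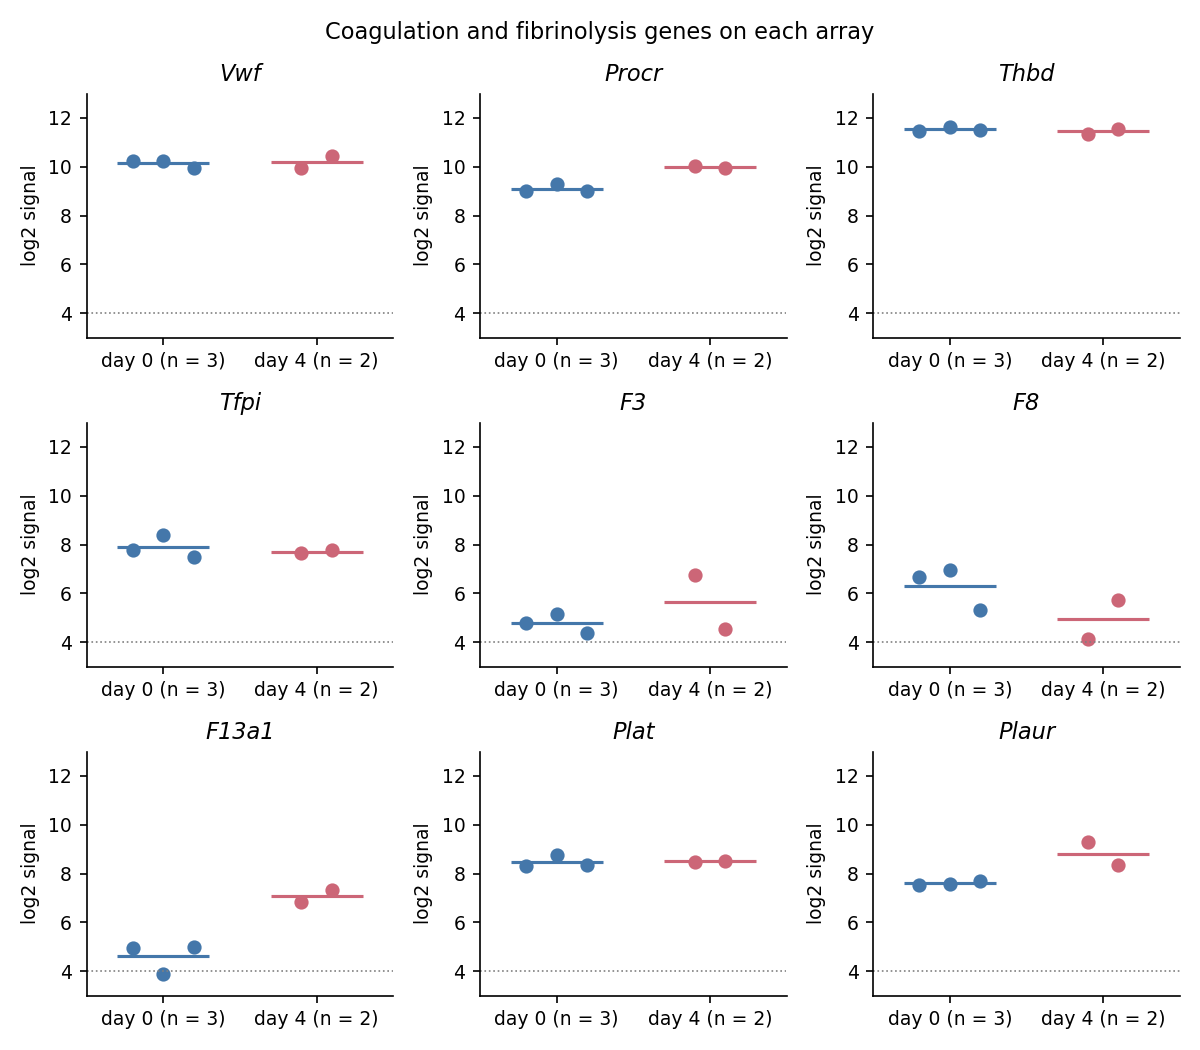
Log2 signal of the 9 member genes on each array, with day 0 in blue (n = 3) and day 4 in red (n = 2), horizontal bars for group means and a dotted line at the level filter of 4. For Tfpi the probe set with the highest mean is drawn. Both day 4 points lie above all day 0 points for Procr, F13a1 and Plaur.

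The sort was checked through marker genes. Cdh5, which encodes VE-cadherin, lay between 11.51 and 11.64 on the day 0 arrays and between 11.38 and 11.40 on the day 4 arrays, and 0 of 16 endothelial markers passed the limma test (2 at an unadjusted p under 0.05). Pecam1, another endothelial marker, lay between 9.63 and 10.05 on the 5 arrays. Defining markers of cells outside the sort were also above the level filter on all 5 arrays. These were Rgs5 and Pdgfrb of pericytes, Csf1r, Cd68 and Adgre1 of macrophages, and Epcam of epithelium. Others were Cd3e of T cells, Pdgfra and Col1a1 of fibroblasts, and Pf4 and Itga2b of platelets, while Gp9 of platelets was above it on 4 arrays. Of the defining markers of lymphatic endothelium, Prox1 was below the filter on all 5 arrays and Lyve1 above it on all 5. Mpo of neutrophil precursors and Foxn1 of thymic epithelium were below it on all 5. Rag1 of thymocytes and S100a8 and S100a9 of neutrophils were above it at day 0 only. Of 15 tested macrophage markers 6 were higher at day 4 and 0 lower, of 9 thymocyte markers 7 were lower, and of 3 tested neutrophil markers 3 were lower. Of all genes tested 1.50% were higher and 1.35% lower. The neutrophil markers S100a8, S100a9 and Camp passed the level filter through the day 0 arrays alone, so the filter partly fixed their direction. Another 6 neutrophil markers did not pass it. Rag1, Ccr9 and Cd8b1 of thymocytes also passed at day 0 alone, and Cd163 and Vsig4 of macrophages at day 4 alone. The difference between 3′ and 5′ control signals, a sign of RNA quality, was 1.43 to 1.65 at day 0 and 1.35 to 1.39 at day 4 for actin, in log2 units.

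Vwf, which tethers platelets to the injured wall and carries factor VIII, showed no change past the threshold. Its log2 signal was 10.24, 10.23 and 9.96 at day 0, and the day 4 arrays read 9.96 and 10.45. The day 4 arrays spanned the whole day 0 range. This gave a log2 change of 0.061 ± 0.17 (SE; limma adjusted p = 0.867), with a 95% interval from -0.36 to 0.48. Its sign turned negative when day 0 replicate 3 (-0.030) or day 4 replicate 2 (-0.18) was left out.

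Of the 3 anticoagulant genes, Procr rose, while Thbd and Tfpi did not pass the threshold. The log2 signal of Procr was 8.99, 9.28 and 8.99 on the day 0 arrays against 10.04 and 9.95 on the day 4 arrays, so the day 4 arrays stood close together and above all untreated ones. The group means were 9.09 ± 0.17 (SD, n = 3) and 9.997 ± 0.060 (SD, n = 2). The rise was 1.88-fold, a log2 change of 0.91 ± 0.12 (SE; limma adjusted p = 0.0228), and the 95% interval ran from 0.61 to 1.21. The size of the Procr change held when any 1 array was left out (0.86 to 1.01), but its call held only without day 0 replicate 2 (adjusted p = 0.0206). Leaving out day 0 replicate 1 gave a limma adjusted p of 0.0559, and leaving out day 0 replicate 3 gave 0.0896. For day 4, it was 0.115 when replicate 1 was left out and 0.0513 when replicate 2 was. With array weights the adjusted p was 0.0736.

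Thbd, the partner of Procr in protein C activation, did not differ beyond the spread between arrays. Its signal was 11.48, 11.63 and 11.52 at day 0 and 11.36 and 11.54 at day 4. The groups overlapped, with day 4 replicate 1 the lowest of the 5 arrays. Its log2 change was -0.096 ± 0.11 (SE; limma adjusted p = 0.630), and its 95% interval of -0.35 to 0.16 does not reach the Procr value. The difference between the changes of the 2 genes was not tested.

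Tfpi, the inhibitor of tissue factor, was read by 3 probe sets that went the same way. The probe set with the highest mean gave 7.77, 8.39 and 7.50 at day 0 and 7.65 and 7.78 at day 4. Day 0 replicate 2 was the highest array for all 3 probe sets, by 0.63 to 1.14 log2 units over the next untreated array. The log2 change was -0.17 ± 0.25 (SE; limma adjusted p = 0.730) with a 95% interval from -0.78 to 0.44, and the other probe sets gave -0.28 and -0.15. Without day 0 replicate 2 the change was 0.083, so its direction rested on that array. Day 0 replicate 2 was also the highest untreated array for 6 of the 9 members, beside 31.7% of all genes tested.

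The procoagulant genes held both the highest and the lowest log2 change of the members. F13a1, whose product links fibrin strands into a stable clot, rose from 4.97, 3.90 and 5.002 on the day 0 arrays to 6.82 and 7.33 on the day 4 arrays. The means were 4.63 ± 0.63 (SD, n = 3) and 7.08 ± 0.36 (SD, n = 2). Every untreated array lay near the level filter, 1 of them under it, and both day 4 arrays lay well above. The rise amounted to 2.45 ± 0.36 (SE; limma adjusted p = 0.0286) on the log2 scale, or 5.47-fold, with a 95% interval from 1.58 to 3.32. Near the background this array scale depends on the background correction, so the size of the fold is less certain than that of a bright gene. With 1 array left out the change ran from 2.09 to 2.70. The call was lost without day 0 replicate 3 (adjusted p = 0.0725), day 4 replicate 1 (0.115) or day 4 replicate 2 (0.0761), and with array weights (0.0826).

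F13a1 is known from macrophages and platelets as well as from plasma, so markers of both cell types were set beside it. The mean log2 level of the 15 tested macrophage markers was 5.74 to 6.66 at day 0 and 7.79 to 7.98 at day 4. All 15 had both day 4 arrays above the day 0 arrays, beside 18.0% of all genes tested. Their median log2 change was 1.75. Of the 6 tested platelet and megakaryocyte markers 1 was higher, and their mean level was 5.67 to 5.84 at day 0 and 5.93 to 5.98 at day 4. In that list Clec1b rose by 1.05 (limma adjusted p = 0.0425), Pf4 differed by 0.93 (adjusted p = 0.0587) and the defining markers Itga2b and Gp9 by -0.24 and -0.14. Ppbp and Treml1, the remaining tested markers of that list, differed by -0.43 and 0.045. The median log2 change of the list was -0.046. The genes with array profiles closest to that of F13a1 were Cd163, the macrophage receptor for hemoglobin, Fcgr1, an Fc receptor, and Ccl8, a chemokine. Closeness was the root mean square difference of mean-centred log2 values over the 5 arrays, 0.24, 0.29 and 0.30 for these genes. By this measure a gene of large change is close only to genes of similar change. Cd163 and Fcgr1 are also in the macrophage list, and their day 0 means, 3.33 and 3.91, lay under the level filter. For Procr the closest profiles were those of Gm13889, the signalling gene Bcr and the cytokine gene Il11, at 0.046, 0.061 and 0.065. The day 0 mean of Il11, 3.50, also lay under the filter. The part of other cells in the F13a1 change was not tested.

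**Figure D2:**
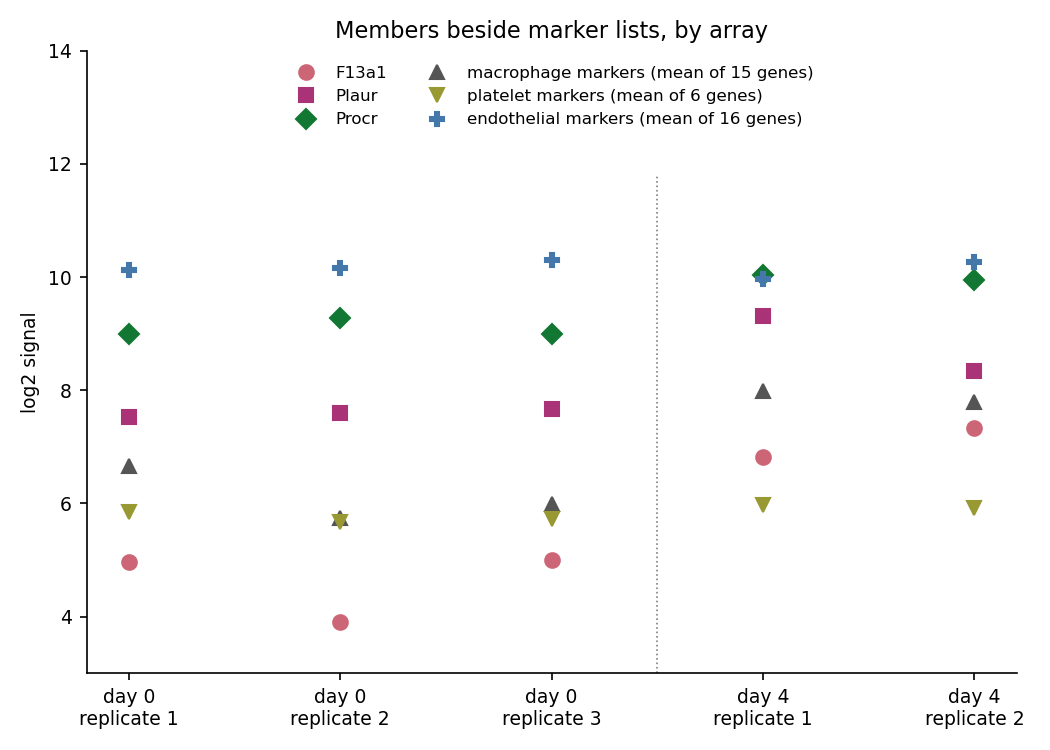
Log2 signal of F13a1, Plaur and Procr on each of the 5 arrays, beside the mean log2 signal of macrophage, platelet and endothelial marker lists, with a dotted line between the groups. F13a1, Plaur, Procr and the macrophage mean are higher on both day 4 arrays, and the endothelial mean lies between 9.97 and 10.30 on all arrays.

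F3, which encodes tissue factor, was high on 1 array. Its signal was 4.79, 5.17 and 4.39 at day 0, 6.74 on day 4 replicate 1 and 4.55 on day 4 replicate 2. The second day 4 array lay within the untreated range. Its mean log2 change was 0.86 ± 0.60 (SE; limma adjusted p = 0.449), with a 95% interval from -0.60 to 2.33. Without day 4 replicate 1 it was -0.23, and leaving out day 4 replicate 2 instead gave 1.96 (adjusted p = 0.0490, with the lone day 4 array assumed to vary like the day 0 arrays). Tissue factor is also made by epithelium and by cells around vessels. The mean level of 8 thymic epithelial markers was 7.20 on day 4 replicate 1 and 6.35 on day 4 replicate 2, beside 7.18 to 7.77 at day 0, and that of 10 pericyte and smooth muscle markers was 8.51 and 8.37, beside 8.34 to 8.54. Their part in the F3 values was not tested.

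F8, the gene of clotting factor VIII, had the lowest log2 change of the members but did not pass. The day 0 arrays read 6.66, 6.96 and 5.33, and the day 4 arrays 4.12 and 5.74. Day 0 replicate 3 lay under day 4 replicate 2, so the groups overlapped. The log2 change was -1.39 ± 0.62 (SE; limma adjusted p = 0.260) with a 95% interval from -2.88 to 0.11, and it stayed negative when any 1 array was left out (-2.19 to -0.58). F8 and F3 varied more between arrays of a group than nearly all genes, with within-group SDs at the 99.7th percentile of the 8940 genes. F13a1, Plaur and Tfpi lay above the 90th percentile too, Procr at the 55.9th and Thbd at the 32.3rd.

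Of the fibrinolysis genes, Plat, which encodes tissue plasminogen activator, differed by less than the spread between arrays. Its signal was 8.32, 8.76 and 8.36 at day 0 and 8.49 and 8.50 at day 4, both inside the untreated range. Its log2 change was 0.016 ± 0.15 (SE; limma adjusted p = 0.962), and the 95% interval was -0.35 to 0.38. Its sign had no stable direction: it was -0.014 after median centring, and -0.064 or -0.044 when day 0 replicate 1 or 3 was left out.

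Plaur encodes the receptor for urokinase, which holds plasmin formation at the cell surface. Its signal was 7.53, 7.59 and 7.68 on the tightly grouped day 0 arrays, and 9.31 and 8.33 at day 4. Both day 4 arrays lay above every untreated array but differed from each other by more than all untreated arrays did. The log2 change was 1.22 ± 0.27 (SE), or 2.34-fold, with an unadjusted limma p of 0.00339 and an adjusted p of 0.0703. The 95% interval was 0.58 to 1.87. Leaving out day 4 replicate 2 gave 1.71, while leaving out day 4 replicate 1 gave 0.74. In each of these fits the lone day 4 array was assumed to vary like the day 0 arrays. Plaur is also known from myeloid cells, and the part of the macrophage signal given above was not tested.

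**Figure D3:**
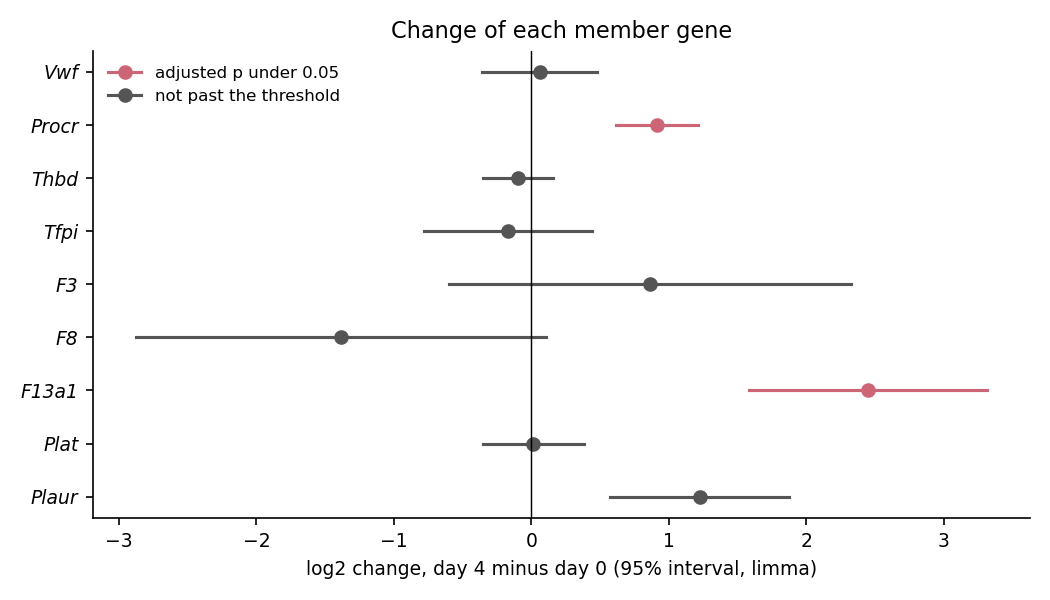
Log2 change from day 0 to day 4 of the 9 member genes with the 95% interval of the limma fit. The intervals of Procr, F13a1 and Plaur lie above 0, and only those of Procr and F13a1 belong to genes past the adjusted threshold (red).

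**Figure D4:**
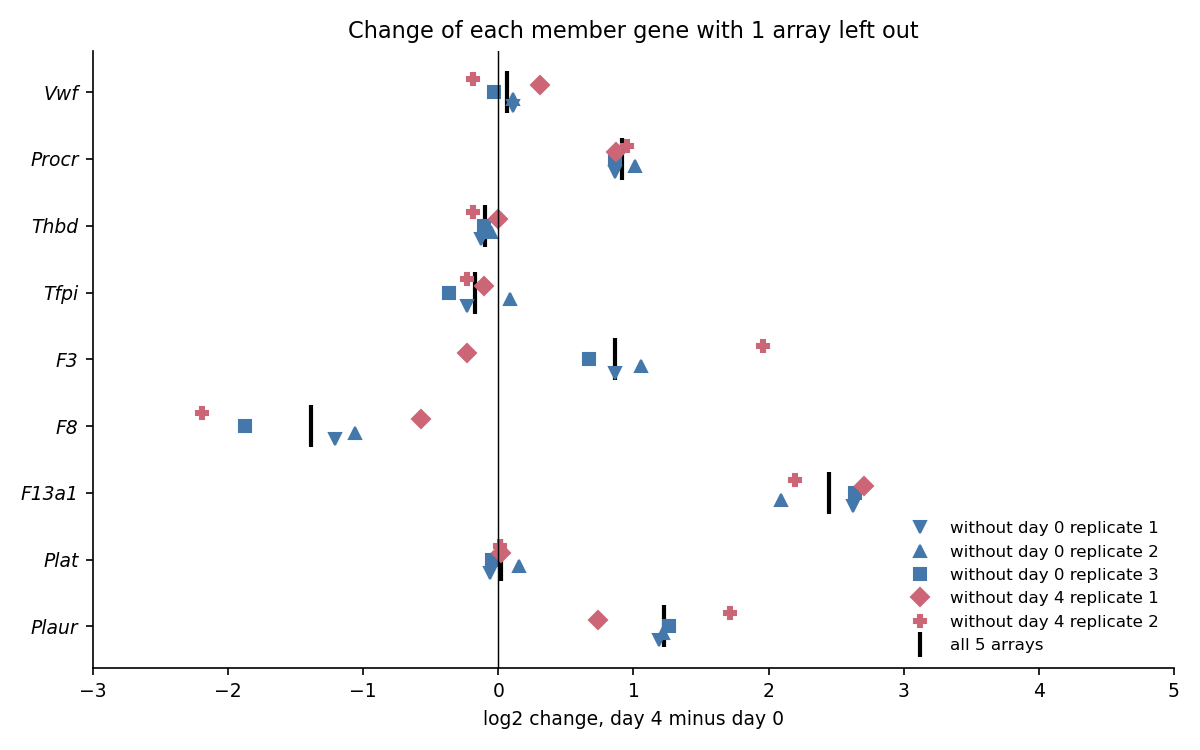
Log2 change of each member gene with all 5 arrays (black bar) and with each array left out in turn (blue for day 0 arrays, red for day 4 arrays). Procr stays between 0.86 and 1.01, while F3 moves between -0.23 and 1.96 with the day 4 array that is left out.

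Start-site sequences are shown for Procr, Plaur and F13a1, the 3 members whose day 4 arrays all lay above the day 0 arrays. RefSeq promoter entries (GRCm38.p6) matched 6 of the 9 members, F13a1 and Tfpi with 2 start sites each. Vwf, Thbd and Plat had no entry. Each sequence is the 250 bases before the start, read 5′ to 3′ on the gene's strand, with motif matches in capitals. The motifs were TGANTCA (AP-1), CACCC (KLF), TTCCGG (ETS) and the NF-kB motif, on both strands. The F13a1 entry at the higher coordinate held no match.
Procr, chr2:155750967-155751216, plus strand: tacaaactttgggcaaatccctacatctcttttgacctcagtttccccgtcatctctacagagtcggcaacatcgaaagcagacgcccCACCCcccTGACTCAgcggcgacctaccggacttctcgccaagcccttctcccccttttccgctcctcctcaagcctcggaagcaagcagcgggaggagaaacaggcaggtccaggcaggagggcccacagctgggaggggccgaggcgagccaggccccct
Plaur, chr7:24462233-24462482, plus strand: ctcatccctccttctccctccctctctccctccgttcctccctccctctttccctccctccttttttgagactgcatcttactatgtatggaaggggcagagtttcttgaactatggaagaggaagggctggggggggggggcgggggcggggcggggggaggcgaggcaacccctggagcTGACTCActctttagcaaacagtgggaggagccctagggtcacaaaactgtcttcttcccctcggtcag
F13a1, chr13:37049214-37049463, minus strand: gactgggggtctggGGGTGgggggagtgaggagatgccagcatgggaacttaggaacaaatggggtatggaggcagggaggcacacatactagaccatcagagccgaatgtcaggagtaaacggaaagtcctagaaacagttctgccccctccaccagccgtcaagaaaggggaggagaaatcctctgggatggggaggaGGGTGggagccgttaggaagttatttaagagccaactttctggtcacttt
F13a1, chr13:37050245-37050494, minus strand: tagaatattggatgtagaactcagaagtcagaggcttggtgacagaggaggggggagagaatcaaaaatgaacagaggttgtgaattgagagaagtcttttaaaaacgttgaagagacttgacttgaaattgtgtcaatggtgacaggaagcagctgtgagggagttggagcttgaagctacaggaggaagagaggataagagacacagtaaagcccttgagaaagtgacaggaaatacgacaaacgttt

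TGANTCA was found in the 250 bases before the start of 3 of the 6 members with an entry, Procr, Plaur and F3, and in 6.75% of all 32851 promoter entries. In Procr it lay 154 to 148 bases before the start, in Plaur 69 to 63, and in F3 it occurred at 146 to 140 and at 135 to 129, the second overlapping a CACCC match. CACCC, a motif common enough to be found in 52.0% of entries, was in 4 of the 6 members: Procr, F3, Tfpi and F13a1. The NF-kB motif, in 7.25% of entries, was found in F8 alone, and TTCCGG, in 12.03%, in none of the 6. Members were counted by gene, with a match in any of its entries enough, while the shares are by entry. These matches describe letters only, in members that were not drawn at random.

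The other genes of the pathway came from 6 lists of 57 genes, of which 46 had a probe set with 1 symbol and 26 passed the level filter. The 13 measured plasma clotting factors and fibrinogen chains, among them F2, F5, F7, F9 and F10, did not pass it, so F8 and F13a1 were the factors of this kind that entered the tests. Of the 26 tested genes 2 were higher and 0 lower by limma, beside 1.50% and 1.35% of all genes tested. At an unadjusted limma p under 0.05 were 7 of the 26, beside 21.2% of all genes tested. Their median log2 change was 0.055. Both called genes encode cargo of the Weibel-Palade bodies, the granules that also hold the Vwf product. The part of other cells, such as platelets, in their changes was not tested. Selp, which encodes P-selectin, read 9.10, 9.22 and 8.80 at day 0 and 10.001 and 9.97 at day 4. Its log2 change was 0.94 ± 0.14 (SE; limma adjusted p = 0.0305), and its other probe set gave 1.32. Angpt2, a ligand of the Tie2 receptor, read 7.27, 7.39 and 7.41 at day 0 and 8.07 and 8.14 at day 4, a log2 change of 0.74 ± 0.095 (SE; adjusted p = 0.0206). Neither call held without day 0 replicate 1, day 0 replicate 3 or day 4 replicate 1, where 0 of the 26 genes were called and 7 to 8 had an unadjusted p under 0.05. Leaving out day 0 replicate 2 left Selp called alone. In the fit without day 4 replicate 2 the Selp call did not hold. That fit assumes that the lone day 4 array varies like the day 0 arrays. Of all genes tested, 1.73% were called without day 0 replicate 1, 1.82% without replicate 2 and 0.452% without replicate 3 of that group. Rab3d, Rab3b and Sytl4, which take part in granule release, changed by 0.0084, 0.060 and -0.31 without passing, and Vwf itself is given above.

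Around Procr and Thbd, Pros1, the cofactor of activated protein C, had a log2 change of 0.59 ± 0.12 (SE; limma adjusted p = 0.0633), with both day 4 arrays above the day 0 arrays. F2r, the thrombin receptor PAR1, was below all day 0 arrays on both day 4 arrays, with a log2 change of -0.46 ± 0.11 (SE; adjusted p = 0.0914) and -0.48 on its other probe set. Neither passed the threshold. Around Plat and Plaur, Plau, the gene of urokinase, differed by 0.57 ± 0.15 (SE; adjusted p = 0.103), and its value was 6.12 on day 4 replicate 1 and 5.65 on day 4 replicate 2. Thbs1, named after its values were seen, differed by 0.69 (adjusted p = 0.0515). The plasminogen-binding genes Anxa2 and S100a10 differed by 0.13 and 0.092, and the fibrin-linking enzyme gene Tgm2 by -0.089, none past the threshold.

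**Figure D5:**
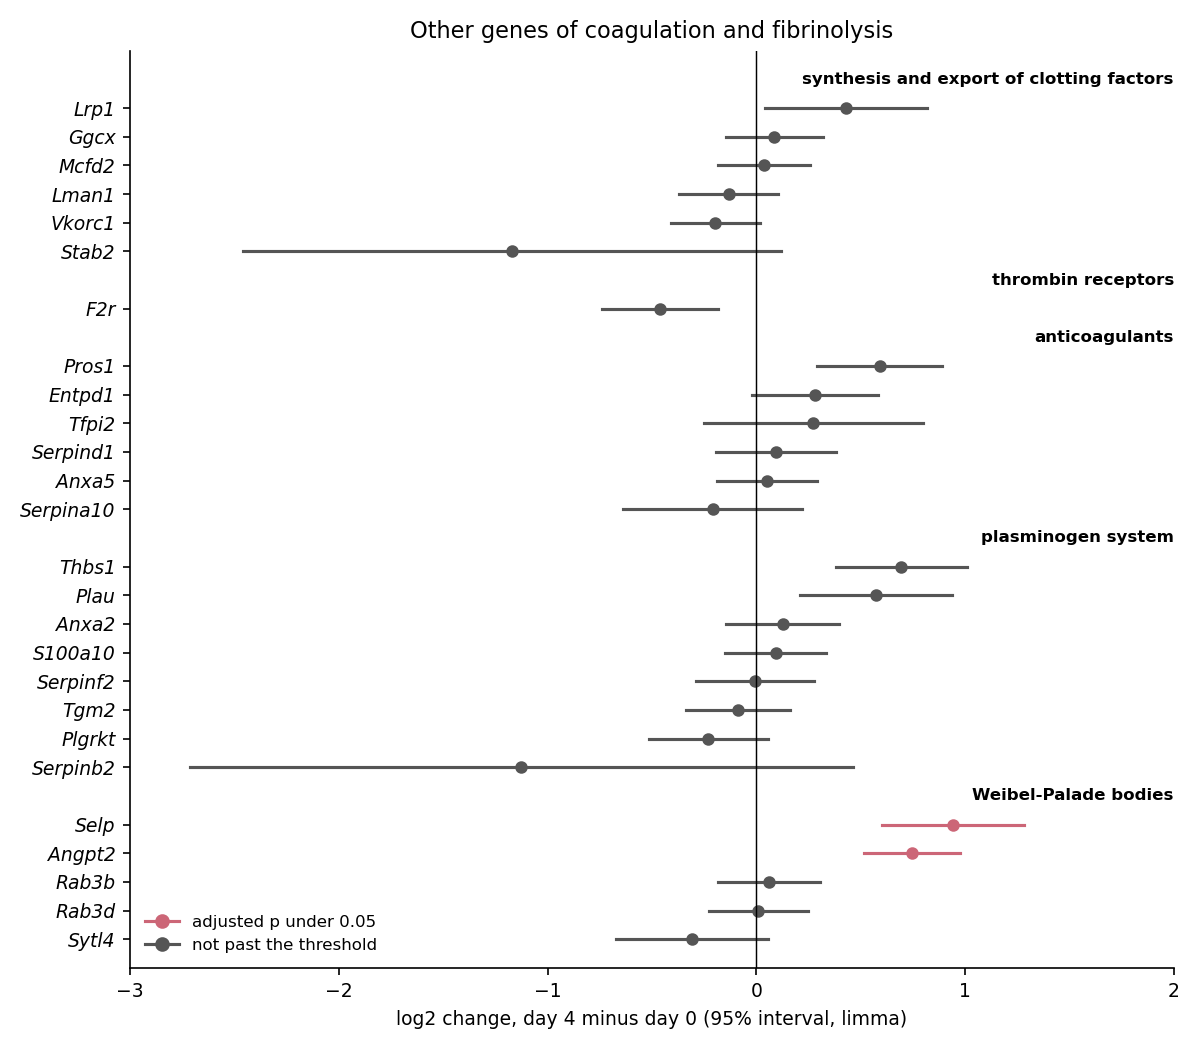
Log2 change from day 0 to day 4 of the 26 tested pathway genes outside the members, grouped by role, with the 95% interval of the limma fit. Selp and Angpt2 (red) are the genes past the adjusted threshold.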

How the data were processed

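Gene expression of cells sorted as thymic endothelium, per the protocol, was read on 5 Affymetrix MOE 430 A 2.0 arrays, 3 at day 0 and 2 at day 4. The deposited table holds log2 values, 1 for each probe set on each array, which the authors computed with GCRMA, per the submitters' processing notes. No version of it is named in the sources used here. GCRMA equalizes the arrays' distributions, which hides a change shared by most genes, and its low values depend on the background correction. Symbols came from the platform annotation: 20380 probe sets had 1 symbol, 691 several and 1555 none. Through Entrez identifiers 20351 matched the RefSeq table (GRCm38.p6) and 0 changed. Genome positions of the probe sets are not given.

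Probe sets with a log2 value above 4 on 2 or more arrays were tested. Each gene took its probe set of highest mean, which left 8940 genes. Day 4 was set against day 0 with limma 3.58.1 (lmFit, eBayes; R 4.3.3), two-sided, without covariates, with 3 residual and 3.29 prior degrees of freedom. The fit was tested on simulated data. No label gave a batch. The number of arrays limits the precision. The text names all members, the called pathway genes, 10 pathway genes whatever their values, the defining markers and the 3 closest profiles of each called member. Of the 10, F5 was below the filter, and 1 is not reported here. Members, lists and rules were chosen with earlier results of these data known. Alternatives were other normalizations, filters, probe set choices, eBayes settings, array weights, a replicate block, another threshold and each array left out. Figures used matplotlib 3.10.9.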

Additional observations from a re-analysis of the deposited data

How the results depend on the processing

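The 9 member changes were computed under 14 alternatives each, or 13 for F3, which did not pass a level filter at 6. Of these 125 values, 102 kept direction and side of the threshold, 13 kept direction and changed side, and 10 changed sign, in Plat, Vwf, Tfpi and F3. Plat was -0.014 with median centring, -0.018 with array weights and -0.044 with the replicate block, and -0.064 to 0.16 with 1 array left out. Vwf was -0.030 with the replicate block and -0.18 to 0.31 with 1 array left out. With 1 array left out Tfpi ran from -0.36 to 0.083 and F3 from -0.23 to 1.96. Member genes called numbered 2 with all arrays, 0 with array weights (3 at an unadjusted limma p under 0.05), 4 with the replicate block and 0 to 2 with 1 array left out. Member probe sets called numbered 0 with array weights and 0 to 2 with 1 array left out. Pathway genes called numbered 2 with all arrays, 1 with array weights or the probe set of largest variance, 4 with a filter at 6 or the replicate block, 5 with an intensity trend and robust fitting or a threshold of 0.10, and 0 to 2 with 1 array left out. Over all genes, the share called was 0.113% when day 4 replicate 1 was left out and 0.452% when day 0 replicate 3 was. That share was 0.962% with array weights, 5.38% with the replicate block and 1.76% with the probe set of largest variance. It was 4.35% with a filter at 6 and 4.68% with an intensity trend and robust fitting. The share over all genes thus shifted under these alternatives too, but the member count did not follow it closely. That count was 2 both at a share of 1.76% and at 4.68%. The cause of these shifts was not tested. Replicate numbers are shared between the groups, but the labels do not say that they pair samples. Deviations of same-numbered arrays correlated at 0.16 and 0.078 over genes, with only 2 such pairs. For differently numbered arrays the values ran from -0.16 to 0.096. The deviations of 2 day 4 arrays from their mean are mirror images, so these values cannot decide whether the numbers pair samples. For the size of a change, the replicate block leaves out day 0 replicate 3 in effect, but its standard errors differ. Under the block F8 (-1.88, limma adjusted p = 0.00622) and Plaur (1.26, adjusted p = 0.0182) joined Procr and F13a1 past the threshold. With the same block fitted over probe sets, only 2 member probe sets were called. With day 0 replicate 3 simply left out, the adjusted p was 0.190 for F8 and 0.169 for Plaur, and 0 members were called. The SE of F8 was 0.27 with the block and 0.52 without that array. No array carried detection calls, so signal over background is known only through the level filter.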

Other observations

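F8 and Stab2, which encodes an endothelial scavenger receptor, put the 5 arrays in the same order, day 0 replicate 2 highest and day 4 replicate 1 lowest. Stab2 read 6.27, 6.98 and 5.01 at day 0 and 4.70 and 5.14 at day 4, a log2 change of -1.17 ± 0.53 (SE; limma adjusted p = 0.268). Stab2 was picked out after its values were seen, and the share of all genes with this order was not counted. Lyve1, a marker shared by lymphatic and sinusoidal endothelium, read 9.18, 8.49 and 7.40 at day 0 and 7.35 and 7.88 at day 4. Its order differed, with day 0 replicate 1 highest.

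Within day 4, replicate 1 was above replicate 2 for F3 (6.74 against 4.55), Plaur (9.31 against 8.33) and Plau (6.12 against 5.65), and below it for F13a1, F8 and Vwf. With 2 arrays these differences have no test.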
